A study of Mus musculus with 2 samples.

Results

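The genes described here are 10 feedback inhibitors of the RAS, RAF, MEK and ERK cascade: the dual-specificity phosphatase genes Dusp1, Dusp4, Dusp5, Dusp6 and Dusp7, the Sprouty genes Spry1, Spry2 and Spry4, and the Spred genes Spred1 and Spred2. They were taken by symbol from the deposited expression table, and all 10 were found among its 13138 genes. The rule for members used no measured values, but the list was chosen with earlier results of these data known. Its direction is therefore not independent evidence. The table compares 2 RNA sequencing libraries of primary chondrocytes from mice of strain C57Bl/6, kept ex vivo in micromass, a dense drop of cells that lays down cartilage matrix. The Cre-labelled library came from cells given an adenovirus with Cre recombinase and carries the genotype label hdac3-knockout, and the GFP-labelled library came from cells given a control adenovirus with green fluorescent protein and carries the label wild-type. Both cultures thus received an adenovirus. The labels do not give the Hdac3 allele, the age of the animals, the number of animals pooled or the share of cells that took up the virus. Each group holds 1 library, so no difference below has a replicate check and none has a p-value: every difference compares these 2 libraries, not the conditions.

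Growth factors such as fibroblast growth factors (FGFs) bind receptor tyrosine kinases, which switch on RAS and then, by successive phosphorylation, RAF, MEK and the MAP kinase ERK. Active ERK induces genes whose products shut the cascade down again. Dual-specificity phosphatases (DUSPs) of the MAP kinase phosphatase group remove the activating phosphates from ERK, p38 or JNK, while Sprouty and Spred proteins act at or above RAF. In the growth plate, signalling from the FGF receptor Fgfr3 through ERK restrains cartilage growth. Some of these genes, such as Dusp6, are used as readouts of FGF signalling, and others also answer to other signals.

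The promoter sequences of 4 members are shown because these members span the range of the comparison. Dusp1 had the highest difference, Dusp6 is a much used readout of FGF signalling, Dusp7 was the only member below 0, and Dusp5 was nearly level. They are RefSeq sequences on GRCm38.p6, found for 8 of the 10 members, from the 250 bases before the RefSeq start of the gene, cut at the first base that GENCODE annotates as an exon. They run 5′ to 3′ on the strand of the gene, with capitals for TGACG (the cyclic AMP response element core, on either strand) and for the CArG box, the element that serum response factor binds. The stretches are chr17:26508520-26508722 (minus strand) for Dusp1, chr10:99262981-99263230 (plus) for Dusp6, chr9:106368382-106368631 (plus) for Dusp7 and chr19:53528895-53529108 (plus) for Dusp5.
Dusp1: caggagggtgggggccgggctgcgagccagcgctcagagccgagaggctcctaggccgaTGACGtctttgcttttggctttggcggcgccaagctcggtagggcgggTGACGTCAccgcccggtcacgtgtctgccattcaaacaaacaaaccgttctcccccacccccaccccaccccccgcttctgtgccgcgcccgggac
Dusp6: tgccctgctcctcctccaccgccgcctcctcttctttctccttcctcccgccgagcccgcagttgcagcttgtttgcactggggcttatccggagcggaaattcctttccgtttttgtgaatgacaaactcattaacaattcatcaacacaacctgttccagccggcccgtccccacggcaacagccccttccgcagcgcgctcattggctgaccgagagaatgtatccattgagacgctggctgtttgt
Dusp7: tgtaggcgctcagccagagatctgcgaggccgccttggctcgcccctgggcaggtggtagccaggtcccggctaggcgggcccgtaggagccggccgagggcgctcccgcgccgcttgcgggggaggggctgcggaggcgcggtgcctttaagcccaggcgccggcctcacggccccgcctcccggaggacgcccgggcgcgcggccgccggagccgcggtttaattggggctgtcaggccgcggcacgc
Dusp5: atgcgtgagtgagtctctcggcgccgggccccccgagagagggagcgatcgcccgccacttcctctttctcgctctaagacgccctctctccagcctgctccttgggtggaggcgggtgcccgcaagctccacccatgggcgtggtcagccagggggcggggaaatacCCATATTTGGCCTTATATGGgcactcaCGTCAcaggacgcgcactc

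Dusp1 held TGACG starting 191 bases before its start and the palindrome TGACGTCA, which contains TGACG on both strands, from 143 to 136 bases before it. Dusp5 held 2 adjoining CArG boxes, from 82 to 73 and from 72 to 63 bases before its start, and TGACG at 55. Over the full 250 bases, TGACG on either strand was present in 3 of the 8 member windows (Dusp1, Dusp5 and Spred2) and in 17.8% of 32851 RefSeq windows of the same length. TGACGTCA was in 1.55% of all windows and a CArG box in 1.47%. The string CCGGAA, the AP-1 site TGANTCA and TATAAA were in 0 of the 8, against 12.0%, 6.75% and 12.4% of all windows. CCGGAA is stricter than GGAA, the core that ETS factors bind, and GGAA alone was not counted. The GC box GGGCGG was in 5 of the 8, against 32.7%. The member windows were rich in CG dinucleotides, with a median of 23 in 250 bases against 6 over all windows. They ranged from 12 in Spred2 to 34 in Dusp7. These matches describe letters in a short window and nothing of what binds there.

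What the authors deposited are normalized counts on a log2 scale. They appear to be regularized logs, which pull the differences of weakly counted genes towards 0, so a fold here is a fold of the transformed values. The table holds no read counts, so library depth is unknown. Hdac3, the gene named in the labels, was at 10.68 in the Cre-labelled library and 10.69 in the GFP-labelled library, so its total did not bear out the knockout label, and each library is named here only by its label. The labelled cell type was borne out: Col2a1, the main cartilage collagen gene, was at 19.97 and 20.35. All 15 measured chondrocyte markers lay lower in the Cre-labelled library, with a median difference of -0.54 (Cre minus GFP, as are all differences below). Of 16 macrophage and leukocyte markers, 10 lay higher, 4 of them by 1.5-fold, and 6 lower, 1 by 1.5-fold, with a median difference of 0.21. Their summed normalized count was 52858 in the Cre-labelled library and 34638 in the GFP-labelled library. The lowest marker of that list, Cd163, was at 5.88 in both libraries. Lyz2, the most highly counted of them, was at 14.82 and 13.98. Emr1, Cd14 and Lyz1 differed by 1.08, 1.04 and 0.91 and Itgam by 0.58, Csf1r and Cd68 by 0.08 and -0.05, and Mrc1 and C1qc by -0.73 and -0.34. How far the cell composition bears on the members was not tested, and in bulk RNA fewer cells of a type and less RNA per cell cannot be told apart.

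Of the 10 members, 9 were higher in the Cre-labelled library and 1, Dusp7, was lower, whereas of the 12809 genes compared 49.9% lay above 0 and 50.1% below. None reached 1.5-fold, the size used here to call a difference, in either direction. Over all genes compared, 2.25% were higher by 1.5-fold and 0.952% lower. At 2-fold these shares were 0.734% and 0.0703%, again with 0 members. By a smaller size of 0.32 on the log2 scale, 3 members were higher (Dusp1, Dusp4 and Dusp6) and 0 lower, beside 6.02% and 4.36% of all genes. The median difference of the members was 0.17 on the log2 scale, that of all 24 DUSP, Sprouty and Spred genes was 0.09, and that of all genes compared -0.00041. The summed normalized count of the members was 9474 in the Cre-labelled library and 8090 in the GFP-labelled library, a ratio of 1.17, and without Dusp1 the ratio of the remaining 9 was 1.10.

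**Figure D1:**
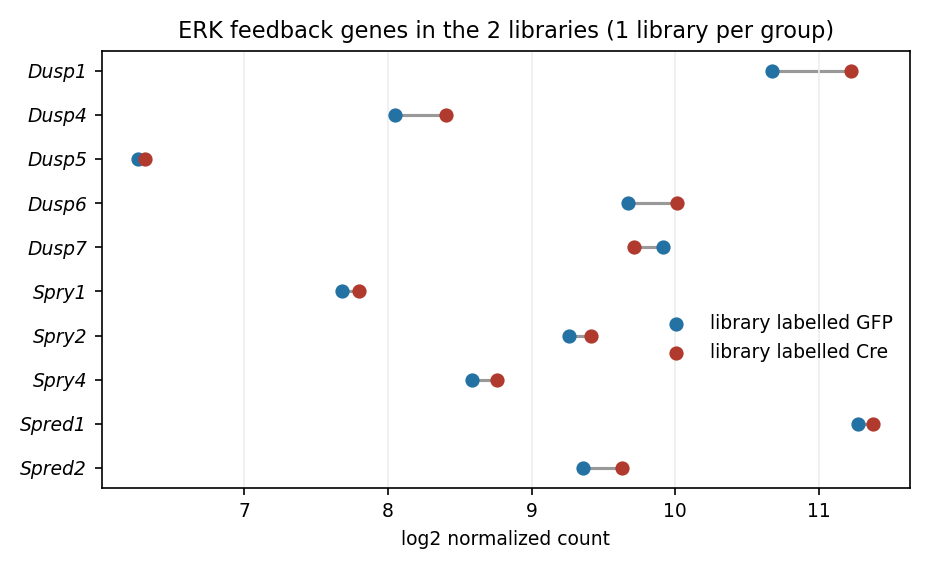
Log2 normalized count (horizontal axis) of the 10 members in the GFP-labelled library (blue) and the Cre-labelled library (red), 1 library each, joined by a grey line. The red point lies to the right for 9 genes and to the left for Dusp7, and the longest line is that of Dusp1, from 10.67 to 11.22.

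Among the nuclear phosphatases, Dusp1 differed most. It encodes an immediate early phosphatase of p38, JNK and ERK that stress, growth factors and glucocorticoids induce. Its Ensembl gene ENSMUSG00000024190 lies on the minus strand of chromosome 17 (26505590 to 26562128, GRCm38). That span reaches upstream of the RefSeq start, so the promoter stretch printed above lies within it. Its log2 normalized count was 11.22 in the Cre-labelled library and 10.67 in the GFP-labelled library, or 2393 and 1633 on the linear scale. This difference of 0.55 (1.47-fold) fell just short of the 1.5-fold size. Of the genes compared, 97.5% had a lower difference, and the same held for 97.2% of the 2312 other genes within 0.5 of its mean log2 count. By the GENCODE annotation used here for positions, exons of Dusp1 overlap those of Ergic1, a gene on the opposite strand. Neither the annotation nor the strand setting of the counting is given in the sources used here. Whether the overlap entered the counts, and how its reads were counted, is therefore unknown. Ergic1 itself went the other way, at 12.18 against 12.32, a difference of -0.14.

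Dusp4, a nuclear phosphatase that acts on ERK and JNK (chromosome 8, 34807297 to 34819894, plus strand), had the next difference. Its log2 count was 8.41 in the Cre-labelled library and 8.05 in the GFP-labelled library, a difference of 0.36 (1.28-fold). At its level, 95.1% of 1726 other genes had a lower difference, so Dusp4 sat at the upper edge of the genes of like abundance. Dusp5, a nuclear phosphatase specific for ERK (chromosome 19, 53529109 to 53542431, plus strand), was at 6.31 and 6.26, a difference of 0.04. It had the lowest log2 count of the members. Over the 981 genes nearest in level the differences had a standard deviation (SD) of 0.14, against 0.24 for the genes nearest Dusp1. An antisense transcript overlaps its exons, and that transcript was not analysed here. These 3 nuclear phosphatases summed to 2812 normalized counts in the Cre-labelled library and 1974 in the GFP-labelled library, most of both sums being Dusp1.

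The cytoplasmic phosphatases of ERK, Dusp6 and Dusp7, went in opposite directions. Dusp6 (chromosome 10, 99263231 to 99267489, plus strand), which is induced by FGF signalling in many tissues, was at 10.01 in the Cre-labelled library and 9.67 in the GFP-labelled library. The difference was 0.34 (1.27-fold), above that of 94.9% of 2642 genes of like level. Dusp7 (chromosome 9, 106368632 to 106375724, plus strand), a close relative of Dusp6, was at 9.71 and 9.92. Its difference of -0.20 (1.15-fold higher in the GFP-labelled library) was below that of all but 7.96% of 2626 genes of like level. The pair had nearly the same mean log2 count, 9.84 and 9.81. Their sum differed little, at 1872 normalized counts in the Cre-labelled library and 1780 in the GFP-labelled library.

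The 3 Sprouty genes were each slightly higher in the Cre-labelled library. Sprouty proteins are docked at the membrane and block signalling between receptor and RAF. Spry4 (chromosome 18, 38586247 to 38601415, minus strand) was at 8.76 and 8.59, a difference of 0.17. Spry2 (chromosome 14, 105891947 to 105896819, minus strand) was at 9.41 and 9.26, a difference of 0.16. Spry1 (chromosome 3, 37639947 to 37644598, plus strand) was at 7.80 and 7.68, a difference of 0.12. All 3 lay inside the range that holds the middle 90% of genes of like level, which for Spry2 ran from -0.27 to 0.41, so none stands apart from other genes between these libraries. A transcript on the opposite strand overlaps exons of Spry1 and was not analysed here. The sum of the 3 was 1339 normalized counts in the Cre-labelled library against 1201.

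Spred1 and Spred2 bring the RAS inactivator neurofibromin to the membrane. Spred2 (chromosome 11, 19924375 to 20024026, plus strand) was at 9.63 in the Cre-labelled library and 9.36 in the GFP-labelled library, a difference of 0.28 (1.21-fold), above that of 92.4% of genes of like level. Spred1 (chromosome 2, 117121374 to 117182279, plus strand) was at 11.38 and 11.28, a difference of 0.10. Nf1, which encodes neurofibromin, was at 11.60 and 11.55. Both Spred genes lay inside the range that holds the middle 90% of genes of like level, which for Spred2 ran from -0.27 to 0.36.

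**Figure D2:**
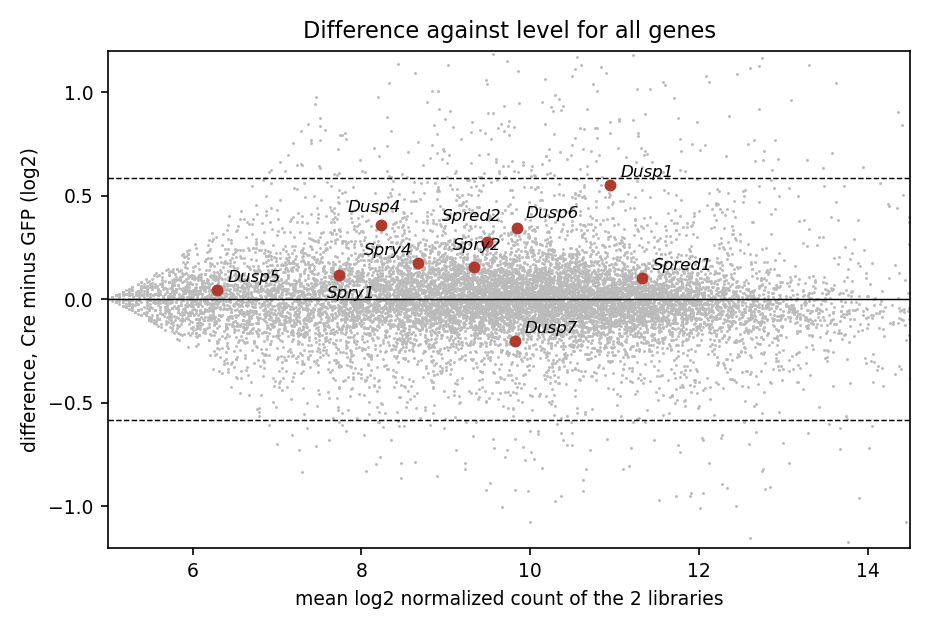
Difference between the libraries (Cre minus GFP, log2, vertical axis) against the mean log2 normalized count (horizontal axis) for all genes (grey) and the 10 members (red, named). Dashed lines mark 1.5-fold, and 193 genes fall outside the axes; no member lies beyond a dashed line, Dusp1 comes closest at 0.55, and the grey cloud narrows towards low counts, where Dusp5 lies.

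Per kilobase of exonic sequence, Dusp1 was the highest member in both libraries, with 723 normalized counts per kilobase in the Cre-labelled library and 493 in the GFP-labelled library. Spred1 followed in both, at 392 and 365. Next came Dusp6, Spry2 and Dusp7, whose order differed between the libraries. In the Cre-labelled library they stood at 330 for Dusp6, 327 for Spry2 and 250 for Dusp7 per kilobase, and in the GFP-labelled library at 260, 293 and 288. Without replicates their order within either library cannot be called. Spred2 (172 and 142), Dusp4 (124 and 96.5), Spry4 (91.2 and 80.9), Spry1 (76.5 and 70.5) and Dusp5 (32.0 and 31.0) kept the same places in both libraries. Dusp1 also led when the length of its longest GENCODE transcript was used. Sprouty genes are compact, with 2 exons in the longest transcript of each, against 3 or 4 in the DUSP members and 7 in the Spred members.

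The table held 14 other DUSP, Sprouty or Spred genes. They are given by class. The classes follow general knowledge and were drawn after the values were seen, so they carry no test. All 3 phosphatases that prefer JNK and p38 were higher in the Cre-labelled library. Dusp16 differed by 0.27 (9.57 against 9.30), Dusp8 by 0.11 and Dusp10 by 0.07. Spred3, the third Spred gene, differed by 0.34, at 8.09 and 7.75. Of the 10 atypical DUSP genes, a varied group of small phosphatases that mostly lack the MAP kinase binding domain, 7 were lower and 3 higher, with a median of -0.08. Dusp14 was lowest, at 8.37 against 8.65, a difference of -0.29. Dusp15, Dusp12 and Dusp28 differed by -0.22, -0.20 and -0.14. Dusp19, Dusp22 and Dusp18 differed by -0.09, -0.07 and -0.05, and Dusp3 by 0.10. Dusp11, which acts on RNA, and Dusp23 were level, at differences of 0.0043 and 0.0064. Dusp2, Dusp9, Dusp13, Dusp21, Dusp26, Dusp27 and Spry3 were looked for and not found under these symbols.

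**Figure D3:**
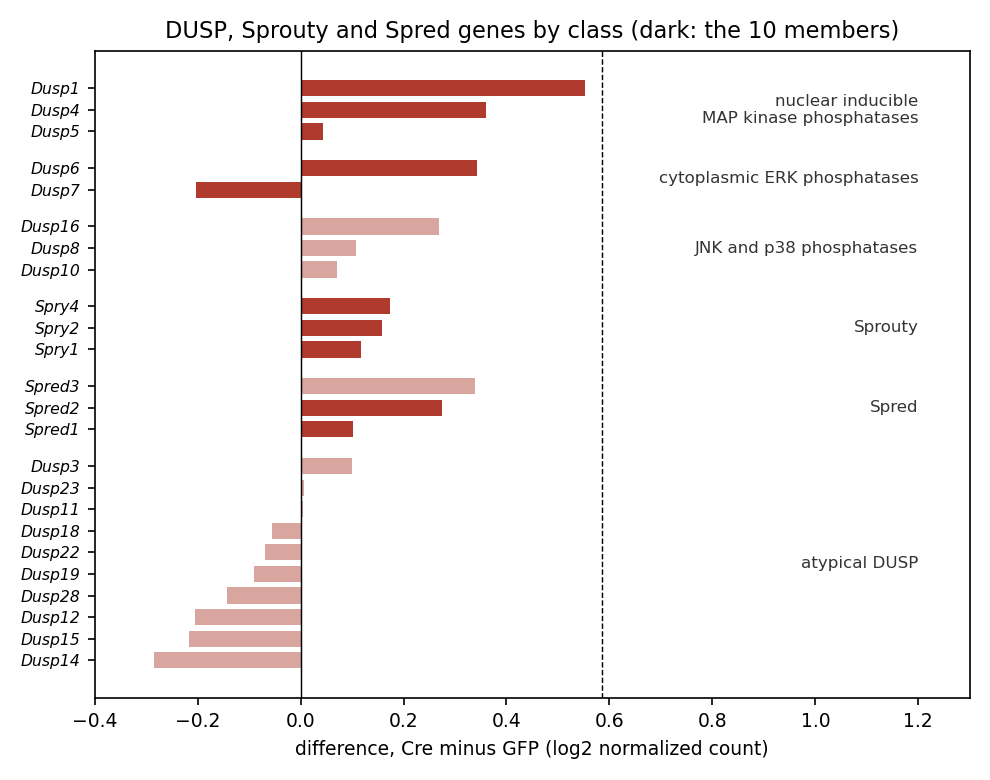
Difference between the libraries (Cre minus GFP, log2 normalized count, horizontal axis) for 24 DUSP, Sprouty and Spred genes, 1 bar per gene, grouped by class. Dark bars are the 10 members and light bars the other genes, the dashed line marks 1.5-fold higher, and bars point left for Dusp7 and for 7 of the 10 atypical genes.

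In RNA, the core of the cascade that these genes restrain was nearly level by its median, and its activity was not measured. Of 20 genes of the RAS, RAF, MEK and ERK core, 10 were higher and 10 lower, 0 by 1.5-fold, with a median of -0.0069. Mapk3, an ERK gene, differed by 0.0017, and Braf, a RAF gene, by -0.05. Map2k1, which encodes MEK1, was higher, at 11.68 against 11.31, a difference of 0.37, and its relative Map2k2 differed by 0.10. The RAS relatives Rras and Rras2 differed by 0.52 and -0.29, and the small GTPase gene Rap1b by 0.22. Of 15 adaptor and exchange factor genes, 6 were higher and 9 lower, 0 by 1.5-fold. Rasgrp3, Irs1 and Gab1 differed by -0.42, -0.33 and -0.30, and Gab2 by 0.27.

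Receptors and ligands upstream spread more widely, with 15 of 30 higher and a median of 0.03. At 1.5-fold, 2 were higher and 3 lower. The epidermal growth factor family ligand gene Ereg was at 10.63 in the Cre-labelled library and 9.40 in the GFP-labelled library, a difference of 1.23. Tgfa, another ligand of the receptor Egfr, went the other way, at 9.01 against 9.93, a difference of -0.92. Of the 4 FGF receptor genes, 3 were lower in the Cre-labelled library. Fgfr3 was at 12.40 against 13.30, Fgfr2 at 12.25 against 12.95 and Fgfr4 at 6.84 against 7.24, and Fgfr1 was at 13.10 against 12.91. Egfr differed by 0.19. Fgfr3 and Fgfr2 were therefore lower in the library in which Dusp6 and the Sprouty genes were slightly higher, and with 1 library each this relation was not tested.

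A list drawn up as other brakes on RAS and ERK had 17 of 24 genes higher, beside 49.9% of all genes compared. The p38 and JNK cascade had 16 of 24 higher, so this lean was not particular to brakes on ERK. The median of the brakes was 0.11, with 2 genes at least 1.5-fold higher and 0 as much lower. Whether each gene in the list acts as a brake in these cells was not tested. Errfi1, which encodes an inhibitor of the EGF receptor, was at 12.29 against 11.54, a difference of 0.75. The phosphatase gene Ptpn2 differed by 0.66, Lrig1, an inhibitor of receptor tyrosine kinases, by 0.54, and Spsb1 by 0.42. Il17rd, which encodes the FGF antagonist Sef, was lower, with a difference of -0.24.

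The list of ERK-responsive transcription, which holds ERK-induced genes and also the factors Elk1, Elk3, Elk4 and Srf that ERK signalling acts through, went both ways. Apart from the 6 members in it, 11 of 18 genes were higher and 7 lower, with a median of 0.10. Ier3 was at 11.34 against 9.78, a difference of 1.56, and Phlda1 differed by 0.71. Etv1, an ETS factor gene, differed by 0.43, and the ETS factor genes Etv5 and Etv4, which FGF signalling induces, by 0.16 and 0.10. Ccnd1, the cyclin D1 gene, was lower at 11.72 against 12.25, a difference of -0.52. Egr1, an immediate early target of ERK, was also lower, at 11.70 against 12.02, and Fos differed by 0.15.

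Of 25 stress and cytokine induced immediate early genes, 20 were higher, 7 at least 1.5-fold, and 0 were as much lower, with a median of 0.17. Nfkbiz was at 11.89 against 10.21, a difference of 1.68. Nfkbia and Tnfaip3, inhibitors within the NF-kappaB pathway, differed by 1.17 and 1.13, and Nr4a2 by 0.83. In the p38 and JNK cascade, 16 of 24 were higher and 0 reached 1.5-fold in either direction. Map3k8, which encodes a kinase that links Toll-like and TNF receptors to MEK, came closest, at 8.64 against 8.05, a difference of 0.58. Map3k1, Map3k14 and Mknk1 differed by 0.36, 0.30 and -0.22, and the p38 and JNK genes Mapk14 and Mapk8 by 0.04 and 0.05.

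Since glucocorticoids induce Dusp1, their other targets were set beside it. Of 14 genes in that list, which includes Dusp1 and Errfi1, 10 were higher, 4 at least 1.5-fold, and 1 was at least 1.5-fold lower. The metallothionein genes Mt2 and Mt1, which metals also induce, differed by 2.10 and 1.59, Ddit4 by 0.80 and Cdkn1c by -0.79. Tsc22d3, a selective target of the glucocorticoid receptor, was lower, at 10.17 against 10.50, and Nr3c1, which encodes the receptor, differed by -0.20.

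**Figure D4:**
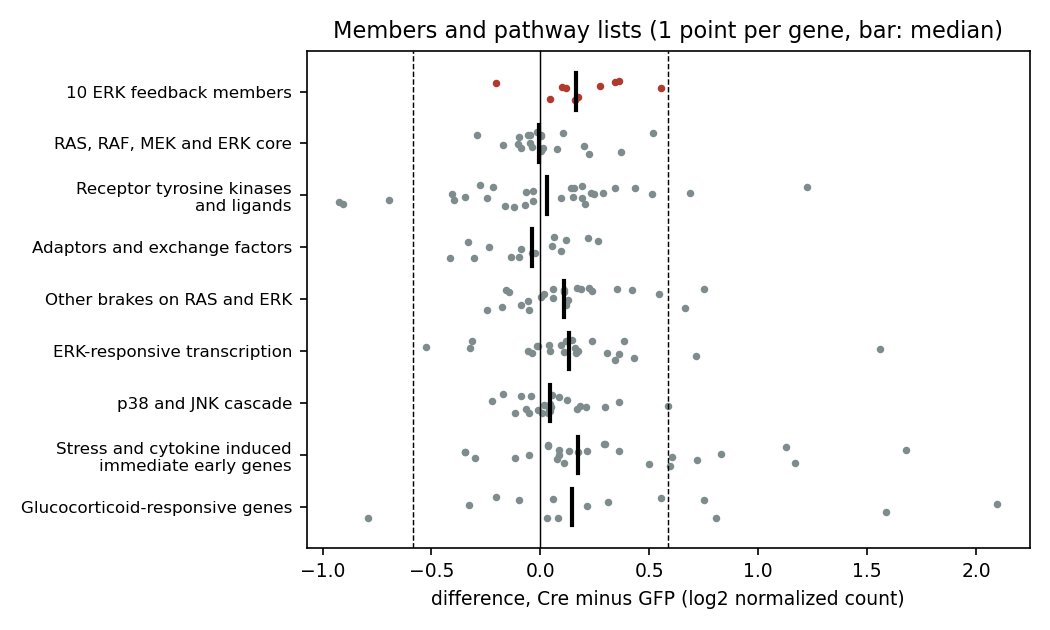
Difference between the libraries (Cre minus GFP, log2 normalized count, horizontal axis) for the 10 members (red) and for the genes of 8 pathway lists (grey), 1 point per gene, with the median as a black bar and 1.5-fold as dashed lines. The members have a median of 0.17 and none beyond a dashed line, the RAS, RAF, MEK and ERK core centres on -0.0069, and the stress and cytokine list reaches 1.68. Some genes are in more than 1 list, and vertical position within a list has no meaning.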

How the data were processed

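RNA was measured in 2 libraries, 1 per group. Per the labels' protocols, TRIzol was used for the total RNA and the Illumina TruSeq v2 mRNA protocol for the libraries. TopHat2 2.0.6, HTSeq, bcl2fastq 1.8.4 and the build mm10 are named in the submitters' processing notes. For the annotation, the strand setting and the transform, nothing is stated. The authors deposited log2 normalized counts for 13138 genes, with their mean and their difference, and the lowest mean is 5.00. A regularized log is inferred from the heading of the difference column and from the narrowing of differences at low levels. The deposited difference is GFP minus Cre in all 13138 rows, so signs were turned here.

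Symbols were read from the row names. A mean normalized count of 50 or more (a log2 value of 5.64) was required, which left 12809 genes for comparison, all 10 members among them. Genes were called by size alone, at 1.5-fold, since 1 library per group allows no test. The precision is limited by the single libraries and by their unknown depth. The 15 gene lists, the members being among them, were chosen with earlier results of these data known, so a list's direction is not independent evidence. Named were Hdac3, the members, the other genes of the family, up to 4 genes of each pathway list with the largest differences, and some fixed by name, of which 2 are not reported here; Col2a1, Csf1r, Cd68, Cd163, Itgam, Mrc1, C1qc, Col1a2, Postn, Twist1, Col1a1, Fgfr1, Fgfr4, Il17rd and Ergic1 were added after their values were seen. Positions and lengths come from GENCODE M21 on GRCm38, matched by symbol and chromosome, and promoters from RefSeq on GRCm38.p6. Python 3.11.15, pandas 2.3.3, numpy 2.4.6 and matplotlib 3.10.9 were used, and the counting of calls was tested on simulated data. Alternatives covered scaling, the minimum, the fold, the mean and the set of members. Replicated tests and pseudocounts were not used, since the values are single libraries on a log2 scale.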

Additional observations from a re-analysis of the deposited data

How the results depend on the processing

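All 40 alternative values for single members (3 scalings, and centring on genes of similar level) kept the sign of the value given and moved by at most 0.012. Each only subtracts a constant, and the smallest member difference was 0.04 (Dusp5), so no sign could change with moves of this size. At a difference of 0.32 on the log2 scale, 3 members were higher; at 2-fold and 4-fold 0 were higher or lower, as at 1.5-fold. With a minimum of 500 on the count scale 6 members remained, 5 of them above 0, and over all 24 DUSP, Sprouty and Spred genes 16 were above 0, with a median of 0.09. Of 84 alternative medians for the lists, 81 stayed within 0.1. By the mean, the stress and cytokine list stood at 0.32 and the glucocorticoid list at 0.36, since a few genes differed by far more than the rest, and at the minimum of 500 the muscle list kept 1 gene, at 0.67. The length of the longest transcript and the median without Dusp1 (0.16) were tried after seeing the data. The scaling offsets lay between -0.0096 and -0.00041, and subtracting them raised every difference by that much, which turned the median of the RAS, RAF, MEK and ERK core from -0.0069 to 0.00074 under equal totals and 0.0027 without Rn45s (0.028 by the mean). Alternative pseudocounts were not run. No paired analysis was possible because there is 1 library in each group.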

Other observations

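The slingshot phosphatases and Styx, which share the dual-specificity fold but do not act on MAP kinases as their main targets, were also measured. Ssh3 was at 9.80 in the Cre-labelled library and 9.49 in the GFP-labelled library, a difference of 0.31, and Ssh1 differed by 0.14. Ssh2 and Styx, a phosphatase-like protein gene without catalytic activity, differed by -0.08 each. Slingshot phosphatases activate the actin-severing protein cofilin.

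Markers of other cells stood as follows. Of 12 fibroblast and perichondrial markers, 7 were higher in the Cre-labelled library, with a median of 0.14. Lum, Dcn, Pdgfra and Col3a1 differed by 0.65, 0.47, 0.43 and 0.35, and Col1a2, Postn, Twist1 and Col1a1 by -0.32, -0.30, -0.27 and -0.14. Of 8 skeletal muscle markers, 7 were higher, with a median of 0.16, led by Ttn at 0.67. Of 6 endothelial markers, 5 were higher, with a median of 0.07. Their part in the values of the members was not tested.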
